A study of Mus musculus with 8 samples.

Results

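The mRNA deadenylation, decapping and decay machinery was followed through 44 named genes in ribosome footprint libraries of naive CD4+ T cells of wild-type mice (WT) and of mice with a Mettl3 knockout (KO). The genes were taken by symbol from a table of 23156 genes, and all 44 had a row. They comprise 10 subunits of the CCR4-NOT deadenylase, the PAN2-PAN3 and PARN deadenylases (3 genes), 15 genes of decapping and 5′ to 3′ decay, 6 of nonsense-mediated decay and 10 of the RNA exosome. Both genotypes were on the C57BL/6 background, and each had 2 footprint libraries, called WT 1, WT 2, KO 1 and KO 2 here. Cells of both genotypes were held in cycloheximide, which stalls ribosomes, at 0.1 mg/ml for 1 min before lysis. The labels give the genotype as a Mettl3 knockout, and neither the allele, any Cre driver, the age of the mice nor whether animals were pooled is given in the sources used here. Nothing in them places the duplicates in different animals, so a p-value here reflects library-to-library spread that may be technical only.

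An mRNA is usually degraded from its tail inwards. Deadenylases shorten the poly(A) tail, the cap is then removed and the body is digested by the 5′ to 3′ exonuclease Xrn1, or the exosome digests it from the 3′ end. Nonsense-mediated decay routes transcripts with a premature stop codon into the same nucleases. Mettl3 is the catalytic subunit of the m6A methyltransferase, and the m6A reader Ythdf2 is known to bring methylated mRNA to CCR4-NOT through Cnot1, so the machinery acts on transcripts that carry the mark. A footprint level reflects both the amount of an mRNA and how densely ribosomes occupy it, and input RNA was not analysed here, so the contributions cannot be told apart. In a bulk sample, fewer cells of a type and less RNA per cell cannot be told apart either.

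Footprint levels are the deposited FPKM (fragments normalised to the length of the gene model and to library size). The size of a single read put the depth at about 5620000 and 3390000 reads in WT 1 and WT 2, and at about 5890000 and 2820000 reads in KO 1 and KO 2. Mettl3 itself stood at 24.5 and 21.1 FPKM in WT and at 2.44 and 3.32 FPKM in KO (log2 fold change -2.62, limma adjusted p = 0.00208). The adjusted p of Mettl3 passed the threshold under all alternatives run except when genes of any level were kept (0.166) or KO 2 was left out (0.051). T cell markers were abundant in every library: the summed level of 8 of them was 618 and 704 FPKM in the WT libraries and 534 and 520 FPKM in the KO libraries, and Cd4 lay between 82.0 and 101 FPKM. The 2 CD8 markers summed to between 1.13 and 2.42 FPKM. The 6 B cell markers summed to 24.4 and 15.5 FPKM in the WT libraries and to 4.92 and 16.7 FPKM in KO, with Pax5 at 0 in all libraries, and the 7 myeloid markers summed to between 13.8 and 24.1 FPKM. The erythroid markers in the table summed to 5.25 and 21.9 FPKM in the WT libraries, to 9.54 FPKM in KO 1 and to 44.6 FPKM in KO 2, while the 6 naive T cell markers summed to 609 and 694 FPKM in the WT libraries and to 732 and 787 FPKM in the KO libraries. KO 1 held the lowest B cell and myeloid sums and KO 2 the highest erythroid sum, and the part of these cells in the results below was not tested.

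The decay machinery showed no member past the threshold. All 44 genes averaged 1 FPKM or more and were tested, and 0 were called in either direction (an adjusted p under 0.05 from limma, by Benjamini-Hochberg over 9271 genes), while 206 genes or 2.22% of all those tested were called, 1.56% higher and 0.658% lower. The number of all genes called depended on each library: it was 57 without WT 1, 43 without WT 2, 34 without KO 1 and 1 without KO 2. At an unadjusted limma p under 0.05, 5 members passed, 1 higher (Cnot2) and 4 lower (Cnot10, Lsm5, Lsm2 and Exosc8), against 18.4% of all tested genes, 6.23% higher and 12.2% lower. For 38 of the 44 members, 86.4%, the 95% interval of the fold change lay within 2-fold in each direction, a share near the 82.7% of all tested genes. The exceptions were Cnot2, Cnot10, Lsm2, Lsm5, Exosc4 and Exosc7. The plot of fold changes with their intervals shows how the members spread around the level of all genes.

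**Figure D1:**
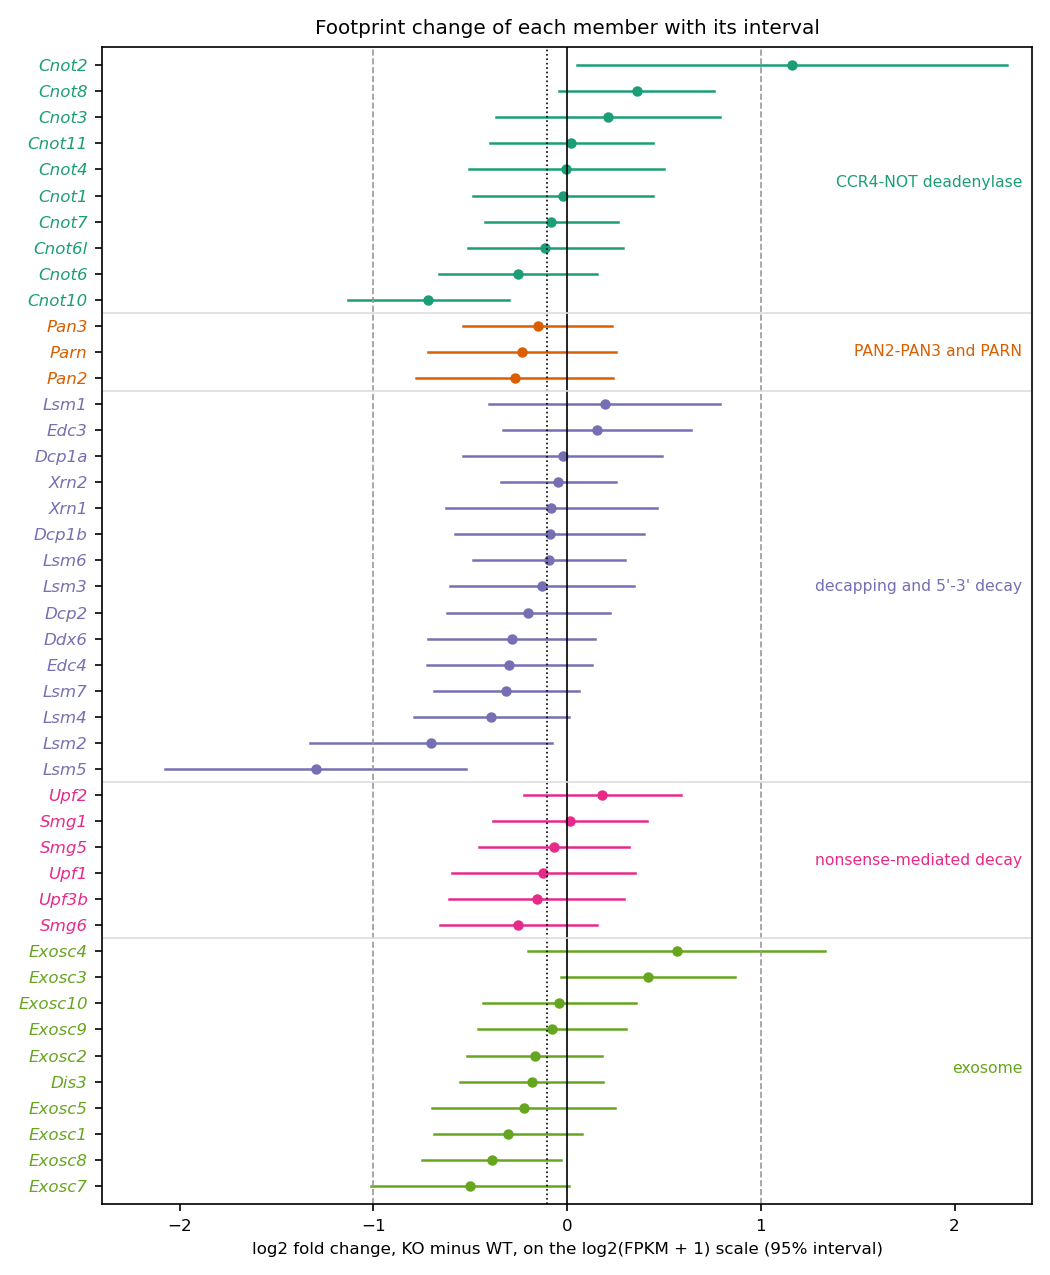
Log2 fold change (KO minus WT, on the log2(FPKM + 1) scale) of each of the 44 members, with points for limma estimates, bars for 95% intervals, the dotted line at the median of all tested genes (-0.10) and dashed lines at 2-fold. Most bars cross 0, and 38 of the 44 lie between the dashed lines.

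The members spanned much of the range of expressed genes. Their mean levels ran from 1.28 FPKM for Lsm1, which is higher than 4.4% of tested genes, to 70.0 FPKM for Xrn2, which is higher than 94.9% of them. The median log2 fold change of the members was -0.12 against -0.10 for all tested genes. Of the members, 34 had a negative fold change and 10 a positive one, which is 77.3% negative against 63.4% of all tested genes. With each library centred on its median, 23 were negative and 21 positive (52.3% against 51.0% of all tested genes), so the balance of signs depends on the scaling. The KO libraries lay below both WT libraries at 15 members and above them at 3, where all genes gave 34.6% and 16.3%, together 50.9%. Single libraries weighed on most of these values. Leaving out a library moved the log2 fold change of 42 of the 44 members by more than 1.5 times in at least 1 fit. The sign changed under at least 1 alternative at 20 members and did not at the other 24. Values near 0 move or change sign easily, and the shares over all tested genes were not computed.

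**Figure D2:**
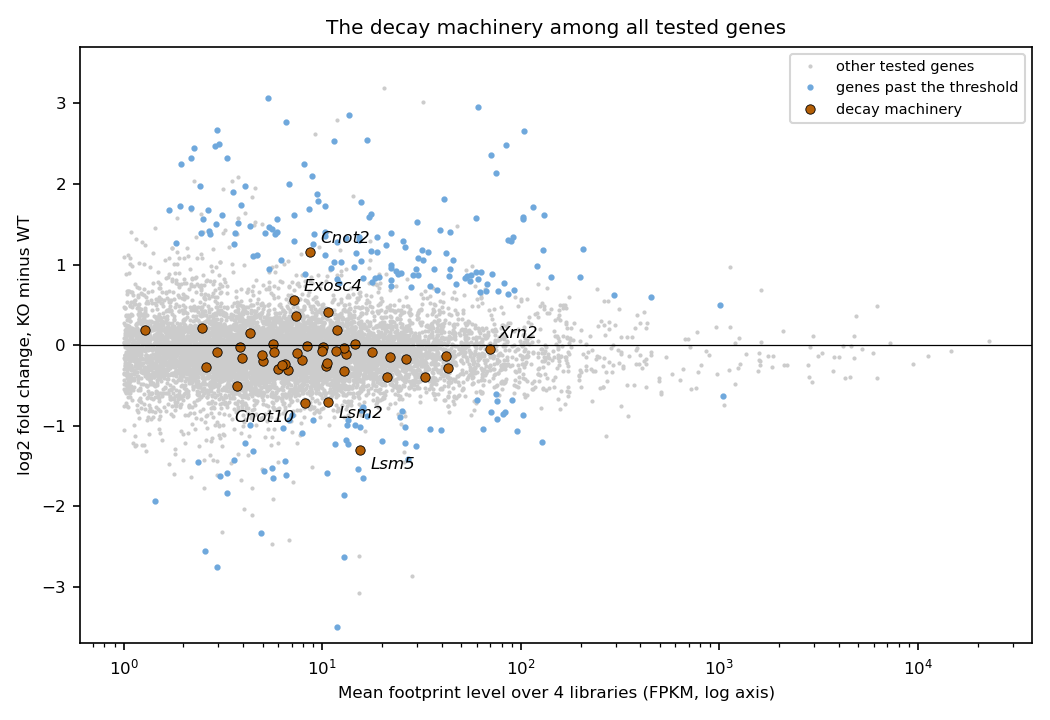
Log2 fold change (KO minus WT) against the mean footprint level over 4 libraries (FPKM, log axis) for all 9271 tested genes, with the 44 members as large points and the 206 called genes in blue. The members lie within the cloud of genes that did not pass the threshold, with Cnot2 and Lsm5 at its edges.

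CCR4-NOT is the main cytoplasmic deadenylase. Its scaffold Cnot1, on which the other subunits assemble, stood at 10.3 and 9.97 FPKM in WT and at 8.23 and 12.01 FPKM in KO. The WT values lay between the KO values. Cnot2 and Cnot3 together form the NOT module at the C-terminal end of Cnot1. Cnot3 stood at 2.36 and 2.03 FPKM in WT and at 2.09 and 3.41 FPKM in KO, again with overlapping groups. Of 28-base coding stretches, 35.8% at Cnot3 and 13.3% at Cnot1 also occur in other annotated genes. An exon of Cnot3 overlaps Leng1 on the opposite strand. Leng1 stood at 1.99 and 1.56 FPKM in WT and at 2.13 and 3.63 FPKM in KO. Cnot2 stood at 2.15 and 9.11 FPKM in WT and at 10.9 and 12.4 FPKM in KO, so that WT 1 was far below the other 3 libraries, which lay close together.

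Cnot2 had the highest fold change of the set, 1.16 in log2 with an SE of 0.47 (limma adjusted p = 0.25), and its means were 5.63 ± 4.92 FPKM for WT and 11.6 ± 1.03 FPKM for KO (SD, n = 2). Without WT 1 the log2 fold change was 0.32 (limma adjusted p = 0.466), and without WT 2 it was 2.001 (limma adjusted p = 0.0397), and over all alternatives its adjusted p lay between 0.0397 and 0.545. The ratio of the higher to the lower WT library was 4.24 at Cnot2, and 10 of 5550 genes averaging 5 FPKM or more had a ratio as high or higher. The value of WT 1 corresponds to about 34 reads on a transcript of 2800 bases and that of WT 2 to about 87. No 28-base stretch of the Cnot2 coding sequence occurs in another annotated gene, but an exon of Cnot2 overlaps 5330438D12Rik on the opposite strand.

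The accessory subunits Cnot10 and Cnot11 bind each other and the N-terminal end of Cnot1. Cnot10 (chromosome 9, 114585878 to 114640184, GENCODE M21 on GRCm38) stood at 9.13 and 11.7 FPKM in WT and at 5.88 and 5.94 FPKM in KO. Both KO libraries were below both WT libraries, and the KO values were nearly equal. The mean was 10.4 ± 1.84 FPKM for WT and 5.91 ± 0.0438 FPKM for KO (SD, n = 2), which gave -0.72 in log2 with an SE of 0.18 and a 95% interval from -1.13 to -0.30. This was the lowest unadjusted p among the members, and the adjusted value missed the threshold (limma adjusted p = 0.101, and between 0.0652 and 0.412 over all alternatives). With each library left out in turn its log2 fold change stayed between -0.88 and -0.55. No exon of Cnot10 overlaps another annotated gene and no 28-base stretch of its coding sequence is shared. Cnot11 stood at 6.25 and 5.02 FPKM in WT and at 5.82 and 5.57 FPKM in KO, where the KO values lay between the WT values.

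The catalytic subunits of CCR4-NOT come in pairs of paralogues, of which a complex holds 1 from each pair. Cnot7 and Cnot8 are the deadenylases of the DEDD type. Cnot7, the subunit of the complex with the highest FPKM, stood at 17.0 and 19.7 FPKM in WT and at 16.8 and 17.8 FPKM in KO. Cnot8 stood at 6.97 and 5.69 FPKM in WT and at 8.42 and 8.32 FPKM in KO, higher in both KO libraries (0.36 in log2, 95% interval -0.04 to 0.76, limma adjusted p = 0.316). The ratio of Cnot7 to Cnot8 was therefore 2.44 and 3.46 in the WT libraries and 1.99 and 2.14 in the KO libraries. Of the Cnot8 coding sequence, 39.6% of 28-base stretches also occur in the annotated gene Gm18860, a symbol not among the 23156 genes with values.

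Cnot6 and Cnot6l carry the other type of nuclease domain, of the endonuclease-exonuclease-phosphatase fold. Cnot6 stood at 11.1 and 11.8 FPKM in WT and at 8.24 and 10.7 FPKM in KO, with both KO libraries lower (log2 fold change -0.25, limma adjusted p = 0.482). Cnot6l stood at 13.7 and 13.6 FPKM in WT and at 10.9 and 14.4 FPKM in KO, which overlap. Cnot4, a ubiquitin ligase that associates with the complex, stood at 8.28 and 8.27 FPKM in WT and at 6.58 and 10.3 FPKM in KO, the WT values lying between those of KO.

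Whether short footprints can be assigned to one paralogue depends on how long the identical stretches are, so the longest run shared by each pair of coding sequences is shown. Both are 20 bases long, shorter than the 28 bases used for the comparison of coding sequences.
Cnot6 and Cnot6l: cataaagacttcaaggaact
Cnot7 and Cnot8: tcatttcacagtggttatga
In Dcp1a and Dcp1b, the paralogous activators of decapping, the longest shared run was 15 bases.

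The other 3 deadenylase genes all had a negative fold change, and 0 of them were called or had an unadjusted limma p under 0.05. Of all tested genes, 63.4% were negative, 2.22% were called and 18.4% had an unadjusted limma p under 0.05. Pan2, the nuclease of the PAN2-PAN3 complex, which acts on long poly(A) tails, stood at 2.49 and 3.38 FPKM in WT and at 2.27 and 2.21 FPKM in KO, with both KO libraries lower (log2 fold change -0.27, limma adjusted p = 0.553). Pan3, its adaptor to the poly(A)-binding protein, was more abundant, at 24.3 and 21.7 FPKM in WT and at 18.2 and 23.3 FPKM in KO (log2 fold change -0.15, and 0.02 without KO 1, limma adjusted p = 0.663 and 0.976). The ratio of Pan3 to Pan2 ranged from 6.40 in WT 2 to 10.5 in KO 2, and these values overlap between the genotypes. Parn, a deadenylase that also trims small noncoding RNAs, stood at 6.11 and 8.02 FPKM in WT and at 5.03 and 6.71 FPKM in KO (log2 fold change -0.23, limma adjusted p = 0.592), and its groups overlapped.

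**Figure D3:**
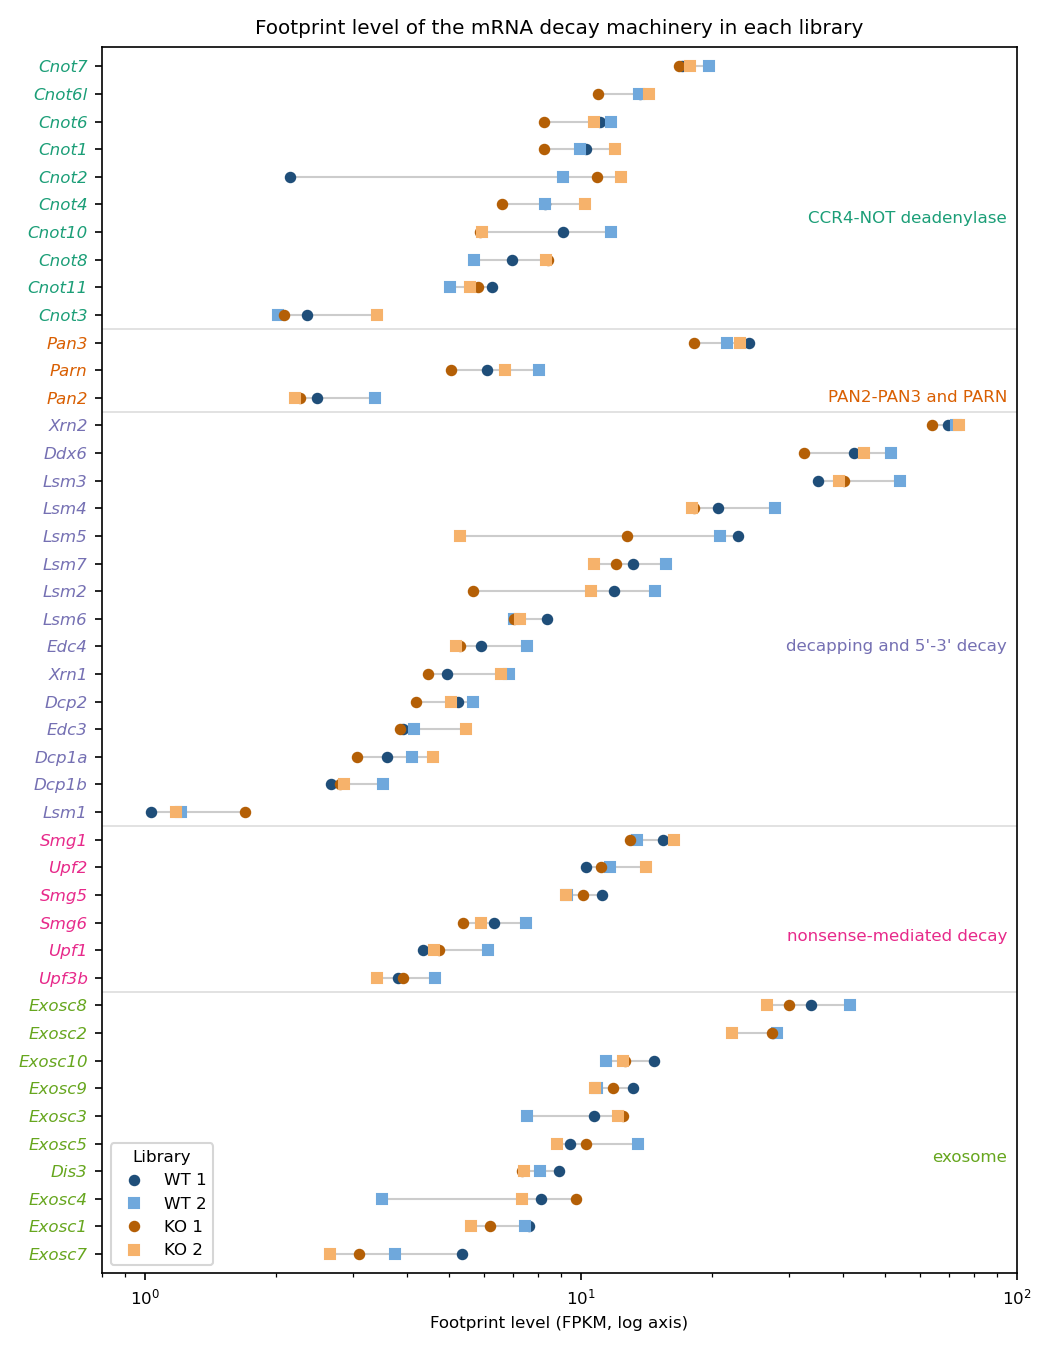
Footprint level (FPKM, log axis) of each member in each of the 4 libraries, ordered within each of 5 groups by mean level, with WT in blue and KO in orange. The grey line spans the 4 values. WT 1 stands apart at Cnot2, KO 2 at Lsm5 and WT 2 at Exosc4, and Xrn2 has the highest level.

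Among the 15 genes of decapping and 5′ to 3′ decay, 0 were called by limma and 2 had an unadjusted p under 0.05, Lsm2 and Lsm5. The shares over all tested genes were 2.22% called and 18.4% at an unadjusted limma p under 0.05. Dcp2, the enzyme that cleaves the cap, stood at 5.24 and 5.65 FPKM in WT and at 4.19 and 5.05 FPKM in KO, with both KO libraries lower (limma adjusted p = 0.594). Its activator Dcp1a stood at 3.60 and 4.10 FPKM in WT and at 3.08 and 4.58 FPKM in KO, and the paralogue Dcp1b at 2.67 and 3.52 FPKM in WT and at 2.80 and 2.86 FPKM in KO. In both paralogues the genotypes overlapped. The enhancer Edc3 stood at 3.92 and 4.15 FPKM in WT and at 3.84 and 5.46 FPKM in KO. Edc4, the scaffold that joins Dcp1 to Dcp2, stood at 5.90 and 7.52 FPKM in WT and at 5.28 and 5.19 FPKM in KO, where both KO libraries were lower (log2 fold change -0.30, limma adjusted p = 0.419). Ddx6, the helicase that links CCR4-NOT to decapping, was among the most abundant members, at 42.3 and 51.6 FPKM in WT and at 32.6 and 44.6 FPKM in KO (log2 fold change -0.29, limma adjusted p = 0.447). KO 1 was its lowest library, and KO 2 lay between the WT values. In its coding sequence, 33.8% of 28-base stretches are shared with the annotated gene Gm13410.

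Xrn2, the nuclear enzyme that also acts in transcription termination, stood at 69.4 and 72.6 FPKM in WT and at 64.0 and 73.9 FPKM in KO. Its 95% interval, -0.34 to 0.25 in log2, was the narrowest among the members. Xrn1, the cytoplasmic enzyme that digests decapped mRNA, stood at 4.93 and 6.84 FPKM in WT and at 4.47 and 6.58 FPKM in KO. The Xrn2 level was 10.6 to 14.3 times that of Xrn1 in the 4 libraries, a ratio per length of gene model. Both enzymes had overlapping genotypes.

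The Lsm proteins form a ring of 7 subunits on the 3′ end of deadenylated mRNA and promote decapping. Of the 7 ring genes, 6 had a negative fold change and 5 did once each library was centred on its median. The median over the 7 was -0.31 before centring, against -0.10 for all tested genes. Of the 7, 0 were called, against 2.22% of all tested genes. The KO libraries lay below the WT libraries at 4 of them, Lsm2, Lsm4, Lsm5 and Lsm7, as they did at 34.6% of all tested genes. Of all genes tested, 63.4% were negative before centring and 51.0% after.

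Lsm5 (chromosome 6, 56701063 to 56704710) had the lowest fold change of the whole set. It stood at 22.9 and 20.9 FPKM in WT, 12.7 FPKM in KO 1 and 5.30 FPKM in KO 2. Both KO libraries were below both WT libraries, and KO 2 was well below KO 1. The mean was 21.9 ± 1.43 FPKM for WT and 9.03 ± 5.27 FPKM for KO (SD, n = 2), which gave -1.30 in log2 with a 95% interval from -2.07 to -0.52 (limma adjusted p = 0.105). Leaving out KO 1 gave -1.86 and a call (limma adjusted p = 0.046), leaving out KO 2 gave -0.74 without one (limma adjusted p = 0.271), and the adjusted p ranged from 0.046 to 0.361 over the alternatives. On a transcript of 494 bases the 4 values correspond to about 64, 35, 37 and 7 reads in WT 1, WT 2, KO 1 and KO 2, so the lowest value rests on very few. The ratio of the higher to the lower KO library was 2.405 at Lsm5. Of 5550 genes averaging 5 FPKM or more, 47, Lsm5 among them, had a ratio as high or higher, whichever KO library was the higher.

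Much of the Lsm5 open reading frame also occurs elsewhere in the annotated transcriptome. Of its 28-base stretches, 87.6% are found in other annotated genes, mainly Gm7846 (197 stretches) and Gm10074 (170). Neither symbol is among the 23156 genes with values. How the authors assigned reads that match several genes is not given in the sources used here, and the part of such reads in the value of Lsm5 was not tested. The 276 bases of the coding sequence are shown to mark the shared part (GENCODE M21 on GRCm38, minus strand of chromosome 6, printed 5′ to 3′ as in the mRNA). Where footprints lie on them was not analysed. Capitals mark the 85 bases, 30.8%, that lie in at least 1 stretch of 28 found in no other annotated gene.
Lsm5: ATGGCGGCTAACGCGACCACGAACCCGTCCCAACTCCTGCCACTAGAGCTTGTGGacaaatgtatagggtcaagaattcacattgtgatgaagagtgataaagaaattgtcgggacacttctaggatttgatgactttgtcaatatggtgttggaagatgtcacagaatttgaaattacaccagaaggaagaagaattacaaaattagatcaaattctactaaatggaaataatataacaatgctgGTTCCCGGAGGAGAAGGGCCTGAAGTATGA
The capitals lie at both ends of the frame, and the middle is shared.

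The other ring subunits had smaller fold changes. Lsm2 stood at 11.9 and 14.8 FPKM in WT, 5.67 FPKM in KO 1 and 10.6 FPKM in KO 2, both KO libraries being lower (-0.70 in log2, 95% interval -1.33 to -0.08, limma adjusted p = 0.223). Here KO 1 was the lowest library, the opposite of Lsm5, and without it the log2 fold change was -0.31. Lsm4 stood at 20.7 and 27.8 FPKM in WT and at 18.2 and 18.02 FPKM in KO (log2 fold change -0.39, limma adjusted p = 0.279), with both KO libraries below WT. Lsm7 stood at 13.2 and 15.7 FPKM in WT and at 12.03 and 10.7 FPKM in KO (log2 fold change -0.31, limma adjusted p = 0.349), also with KO below WT. Every 28-base stretch of the Lsm7 coding sequence, 100%, is shared with other annotated genes. Lsm3 stood at 35.0 and 54.1 FPKM in WT and at 40.2 and 39.2 FPKM in KO, the KO values lying between those of WT. Lsm6 stood at 8.39 and 7.03 FPKM in WT and at 7.02 and 7.26 FPKM in KO. Its groups overlapped, and 83.3% of its stretches are shared.

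Lsm1 is the subunit that defines the cytoplasmic decay ring, and Lsm8, which is not among the 44 genes, takes its place in the nuclear ring that binds U6 small nuclear RNA. Lsm1 had the lowest mean FPKM of the members, at 1.04 and 1.21 FPKM in WT and at 1.70 and 1.18 FPKM in KO. These values correspond to between about 9 and 27 reads per library (log2 fold change 0.19, limma adjusted p = 0.725). Lsm8 stood at 60.9 and 43.3 FPKM in WT and at 53.5 and 62.0 FPKM in KO. The ratio of Lsm1 to Lsm8 was thus 0.017 and 0.0279 in the WT libraries and 0.0318 and 0.019 in the KO libraries, which overlap. The coding part of the Lsm1 model is 15.1% of its length of 2663 bases, and FPKM divides by a whole gene model, so footprints per coding base are higher than this level conveys. Over the 44 members the coding part ranged from 6.4% to 95.5% of the model in GENCODE M21, and the order of levels between genes depends on it. Levels per length of coding part were computed on 1 GENCODE M21 transcript per gene, which may differ from the model behind the deposited values. On that assumption, the mean of Cnot6l (68.1) exceeded that of Cnot7 (61.95). That of Ddx6 (178.6) exceeded that of Xrn2 (84.16), and that of Cnot3 (3.092) lay below that of Lsm1 (8.481).

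All 6 members of nonsense-mediated decay had intervals within 2-fold, 4 had a negative and 2 a positive fold change, and 0 had an unadjusted limma p under 0.05. For all tested genes, 82.7% of intervals lay within 2-fold, 63.4% of fold changes were negative and 18.4% had an unadjusted limma p under 0.05. Upf1, the helicase at the centre of the pathway, stood at 4.35 and 6.15 FPKM in WT and at 4.74 and 4.62 FPKM in KO, with the KO values between those of WT. Upf2, which bridges Upf1 and the Upf3 proteins, stood at 10.3 and 11.7 FPKM in WT and at 11.2 and 14.1 FPKM in KO (log2 fold change 0.18, limma adjusted p = 0.614). Upf3b, the link to the exon junction complex, stood at 3.80 and 4.63 FPKM in WT and at 3.92 and 3.41 FPKM in KO (log2 fold change -0.16, limma adjusted p = 0.701). Both had overlapping genotypes. Smg1, the kinase that phosphorylates Upf1, stood at 15.5 and 13.4 FPKM in WT and at 13.0 and 16.4 FPKM in KO. Smg5, which binds phosphorylated Upf1 and recruits decay enzymes, stood at 11.2 and 9.28 FPKM in WT and at 10.1 and 9.28 FPKM in KO. Smg6, the endonuclease that cuts near the premature stop codon, stood at 6.34 and 7.51 FPKM in WT and at 5.38 and 5.90 FPKM in KO. Smg6 was the 1 member of the pathway whose KO libraries both lay below WT (log2 fold change -0.25, limma adjusted p = 0.483).

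The exosome is a barrel of 9 subunits, with Exosc1, Exosc2 and Exosc3 as the RNA-binding cap and the others as the ring, to which nucleases attach. Among its members, cap genes had fold changes of either sign and so did ring genes, and 0 of the 10 were called, against 2.22% of all tested genes. Exosc1 stood at 7.60 and 7.44 FPKM in WT and at 6.20 and 5.61 FPKM in KO, both KO libraries being lower (log2 fold change -0.31, limma adjusted p = 0.368). Exosc2 stood at 27.6 and 28.2 FPKM in WT and at 27.4 and 22.3 FPKM in KO, where KO 1 was just below WT (log2 fold change -0.17, limma adjusted p = 0.591). Exosc3 stood at 10.7 and 7.52 FPKM in WT and at 12.5 and 12.2 FPKM in KO, the 1 exosome gene with both KO libraries above WT (0.42 in log2, 95% interval -0.03 to 0.86, limma adjusted p = 0.301). An exon of Exosc3 overlaps Dcaf10 on the opposite strand.

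Among the ring genes, Exosc8 (chromosome 3, 54728678 to 54735393) was the most abundant and stood at 33.8 and 41.5 FPKM in WT and at 30.0 and 26.8 FPKM in KO. Both KO libraries were lower, with means of 37.6 ± 5.47 and 28.4 ± 2.31 FPKM (SD, n = 2). This gave -0.39 in log2 with an SE of 0.15 (limma adjusted p = 0.234, and between 0.179 and 0.637 over all alternatives). An exon of Exosc8 overlaps Supt20 on the opposite strand, and 17 of the 44 members overlap an exon of another annotated gene. Exosc7 stood at 5.35 and 3.75 FPKM in WT and at 3.11 and 2.66 FPKM in KO, also with KO lower (log2 fold change -0.50, limma adjusted p = 0.276), on about 8 to 32 reads per library. Exosc4 stood at 8.10 and 3.498 FPKM in WT and at 9.76 and 7.32 FPKM in KO, so that WT 2 was the low library and the genotypes overlapped. Its log2 fold change was 0.57 (limma adjusted p = 0.40), and it was 1.07 without WT 1 and 0.06 without WT 2. Exosc4 shares 20.3% of its coding stretches with Oplah on the opposite strand, which stood between 0.466 and 1.09 FPKM. Exosc5 stood at 9.43 and 13.5 FPKM in WT and at 10.3 and 8.81 FPKM in KO, and Exosc9 at 13.2 and 10.9 FPKM in WT and at 11.9 and 10.8 FPKM in KO. Both genes overlapped between the genotypes.

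Both nucleases of the exosome had an interval within 2-fold. Dis3, the processive exonuclease at the base of the barrel, stood at 8.94 and 8.08 FPKM in WT and at 7.33 and 7.40 FPKM in KO, both KO libraries being lower (limma adjusted p = 0.581). Exosc10, the exonuclease of the nuclear form, stood at 14.7 and 11.4 FPKM in WT and at 12.6 and 12.5 FPKM in KO, between the WT values. The ratio of Exosc10 to Dis3 was 1.64 and 1.41 in the WT libraries and 1.72 and 1.69 in the KO libraries. Across the machinery, the 12 genes that encode a nuclease or the decapping enzyme had a median log2 fold change of -0.15, with 0 at an unadjusted limma p under 0.05 and all 12 intervals within 2-fold. The other 32 genes had a median of -0.11, with 5 at an unadjusted limma p under 0.05 and 26 intervals within 2-fold. All tested genes had a median of -0.10, 18.4% at an unadjusted p under 0.05 and 82.7% of intervals within 2-fold, and the difference between the 12 and the 32 genes was not tested.

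**Figure D4:**
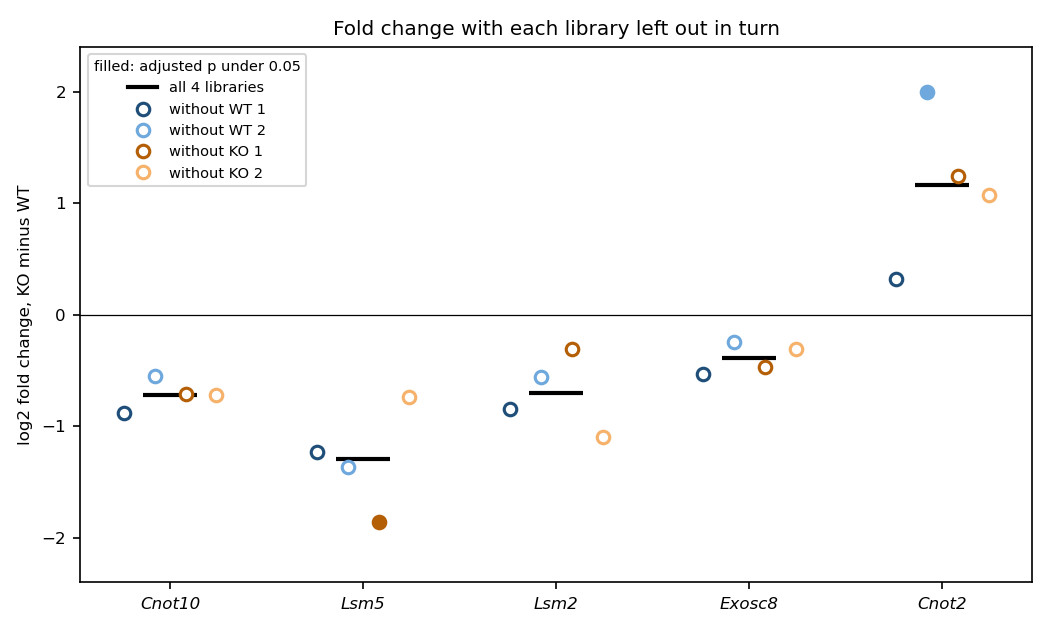
Log2 fold change (KO minus WT) of the 5 members with an unadjusted limma p under 0.05, from all 4 libraries (black bars) and with each library left out in turn (circles, filled where the adjusted p was under 0.05). Lsm5 passed the threshold without KO 1 (-1.86) and Cnot2 without WT 2 (2.001), whereas Cnot10 stayed between -0.88 and -0.55 and was not called in these fits.

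A further 52 genes of the same pathways were read from the same fit. They were listed by role, but with earlier results of these data known. Of these, 0 were called, 7 had an unadjusted limma p under 0.05 (3 higher, 4 lower), and 47, or 90.4%, had an interval within 2-fold. Their median log2 fold change was -0.05. Among all tested genes, 2.22% were called and 18.4% had an unadjusted limma p under 0.05 (6.23% higher, 12.2% lower). The share of intervals within 2-fold was 82.7% there, and the median was -0.10. The genes named next are those with low p-values and were not called. Pelo, which rescues stalled ribosomes and works with the exosome in no-go decay, stood at 4.43 and 3.998 FPKM in WT and at 7.13 and 9.04 FPKM in KO (log2 fold change 0.79, limma adjusted p = 0.0871, and between 0.0459 and 0.357 over all alternatives). Both KO libraries were higher, and it passed the threshold when libraries were centred on their medians. Smg8 and Smg9 form a complex that restrains the kinase Smg1. Smg9 stood at 5.43 and 6.43 FPKM in WT and at 3.01 and 3.29 FPKM in KO (log2 fold change -0.74, limma adjusted p = 0.104), while Smg8 stood at 5.34 and 5.19 FPKM in WT and at 7.39 and 7.57 FPKM in KO (log2 fold change 0.44, limma adjusted p = 0.212). The KO libraries were on opposite sides of WT at these partners. Magoh, a core protein of the exon junction complex, stood at 125 and 108 FPKM in WT and at 171 and 137 FPKM in KO, higher in both KO libraries (log2 fold change 0.40, limma adjusted p = 0.21).

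Antiproliferative BTG proteins bind the Cnot7 and Cnot8 deadenylases and are known for keeping T cells quiescent. Btg1 had the highest FPKM of the 52 genes, at 244 and 222 FPKM in WT and at 184 and 204 FPKM in KO (log2 fold change -0.26, limma adjusted p = 0.281). Btg2 stood at 135 and 139 FPKM in WT and at 95.9 and 120 FPKM in KO (log2 fold change -0.35, limma adjusted p = 0.229). The KO libraries lay below the WT libraries at Btg1 and Btg2. Their relative Btg3 stood at 30.1 and 26.3 FPKM in WT and at 32.9 and 35.6 FPKM in KO, with both KO libraries higher. Among the exosome cofactors, C1d stood at 3.04 and 4.34 FPKM in WT and at 2.25 and 1.54 FPKM in KO and was lower in both KO libraries (-0.69 in log2, limma adjusted p = 0.197). The decapping partners with the lowest unadjusted p were Gigyf2 and Dcps. Gigyf2, a translational repressor, stood at 12.8 and 13.9 FPKM in WT and at 8.71 and 11.5 FPKM in KO. Dcps, which hydrolyses the cap left by the exosome, stood at 7.89 and 10.3 FPKM in WT and at 6.77 and 6.72 FPKM in KO. KO was below WT at both, with limma adjusted p-values of 0.301 and 0.327.

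Coding sequences were also searched for GGACT, written GGACU in RNA, the best known form of the motif that Mettl3 methylates. The search covered the mRNA strand of 1 coding transcript per gene, and a match is a description and not a methylated site. GGACT occurred in the coding sequence of 32 of the 44 members, 72.7%, and in that of 74.9% of 8828 tested genes with a protein-coding model, with median coding lengths of 1575 and 1311 bases. There were 0.968 matches per coding kilobase in the members and 1.16 in all these genes. Over whole transcripts, GGACT occurred in 88.6% of the members and in 91.1% of these genes. Lsm5 had 0 matches in its whole transcript. Lsm2 had 0 in its coding sequence and 1 after its stop codon, and Cnot10 had 2 in its coding sequence. For the members with an unadjusted limma p under 0.05 that hold a match, and for Cnot8 and Exosc3, whose KO libraries lay above WT, the match nearest the stop codon is shown with the surrounding coding bases. Capitals mark the match, and its position is counted from the A of the start codon.
Cnot10, position 1925: gaactctgcccGGACTgtgatgctctt
Exosc8, position 747: gctaaacttcaGGACTgcatgagtcga
Cnot2, position 8: atggtgaGGACTgatggacatac
Cnot8, position 822: aatgaggatgtGGACTgtgcccaggag
Exosc3, position 303: gtttactgggtGGACTcgcagcagaag
The genes shown all hold a match, as do most tested genes, and whether the motif goes with the fold changes was not tested. Smg1 had 12 coding matches, the highest number among the members. Its coding sequence of 10977 bases is also the longest among them.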

How the data were processed

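Footprint and input RNA libraries were prepared with a commercial ribosome profiling kit and 9 PCR cycles, per the labels' protocols. Of 8 samples, the 4 footprint libraries were analysed, grouped by their titles, and the 4 input libraries were not analysed here. The deposited table holds FPKM, 1 column per library, per the file headers. TopHat, Cuffdiff and mm10 (GRCm38) are named in the submitters' processing notes. The sources used here give no annotation, strand setting or rule for reads that match several genes.

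By symbol, 1215 small RNA genes were removed. The 9271 other genes averaging 1 FPKM or more entered limma (version 3.58.1, R version 4.3.3) as log2(FPKM + 1) (moderated with a mean trend, two-sided, 2 residual and 5.2 prior degrees of freedom, Benjamini-Hochberg adjustment over all genes, threshold 0.05). Fold changes on this scale understate those of low genes. Depth, and the approximate reads behind a value, were estimated from the value of 1 read, taken as the most frequent product of FPKM and length among low values of 3807 genes with a single GENCODE M21 transcript of at least 500 bases, and cover counting only. The reads behind a member's value also used the length of 1 GENCODE M21 coding transcript, and a shorter transcript would give fewer reads. Shared 28-base stretches were counted in annotated transcripts on both strands. The script was tested on simulated data.

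The members, gene lists and tests were chosen with earlier results of these data known. Per-library values are given for every member. Fold changes, their intervals or their tests are given for 26 members. From the 52 other genes, the rule named called genes or else the lowest p-values of each list. Btg3, Smg8 and Lsm8 lie outside this rule and were added with their values known. Alternatives changed the pseudocount, filter, scaling, small RNA genes, variance trend and replicate block, and left out each library in turn.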

Additional observations from a re-analysis of the deposited data

How the results depend on the processing

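No member was called under any alternative run except Cnot2 without WT 2 and Lsm5 without KO 1, so the count of called members ranged from 0 to 1 when a library was left out. A genotype left with 1 library was assumed to vary like the other. Of all 44 members, 20 changed sign under at least 1 alternative. With a library left out, 42 moved by more than 1.5 times in log2 fold change. Neither share was computed over all tested genes. Among the 26 with a fold change, its interval or its test in the text, 24 so moved, and Pan3 (-0.322 to 0.018 with a library left out, positive without KO 1) and Xrn2 (-0.147 to 0.056, positive without KO 1, and 0.049 centred and 0.033 rescaled) changed sign. With a library left out, Ddx6 reached -0.064, Parn -0.056, Exosc2 -0.024, Upf2 0.025 and Exosc3 0.184. The count of all called genes was 0 of 15456 with no filter on low genes (2061 at an unadjusted limma p under 0.05, and 2 of the 44 members), 83 with small RNA genes kept, 68 with no variance trend, and 1 to 57 with a library left out. Among the 52 other genes, 1 was called with libraries centred on their medians (Pelo). The members' median was -0.023 with centring, -0.045 with rescaling that leaves out small RNA genes, and -0.182 to -0.075 with a library left out. That of nonsense-mediated decay was -0.001, -0.026 and, at 5 FPKM or more, -0.027. That of decapping and 5′ to 3′ decay was -0.286 at 5 FPKM or more and -0.284 to -0.078 with a library left out. Leaving out a library moved CCR4-NOT between -0.195 and 0.148 and the exosome between -0.245 and -0.078. The cause of these shifts was not tested. With the replicate block 170 genes and 0 members were called. The replicate numbers do not pair the libraries by any label, and the deviations of WT 1 and KO 1 correlated at -0.0927 over 9271 genes, which are not independent. With reads estimated on 1 transcript length per gene, depth limits Lsm1, Lsm5 and Exosc7 most, at about 7 to 9 reads in KO 2.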
